A study of Mus musculus with 9 samples.

Results

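The enzymes that bring long-chain fatty acids into mitochondria and oxidise them there were examined in mouse heart before and after birth. They were 35 genes of the 48820 in the table, chosen by symbol: carnitine enzymes, the malonyl-CoA enzymes that control them, acyl-CoA synthetases and thioesterases, and the enzymes of mitochondrial FA beta-oxidation with the flavoproteins that take up their electrons. All 35 were found, and 34, with means over the 9 hearts of 1 FPKM or more, were tested. The remaining gene, *Acsl6*, was at 0.09 to 0.34 FPKM in the 9 hearts. Total RNA was sequenced from hearts of untreated WT C57BL/6J mice at E18.5d (late foetal life), P1d and P7d (postnatal days 1 and 7), with 3 biological replicates per stage. Values are FPKM, the fragments of a gene per kilobase of its length and per 1e6 fragments mapped, which allow levels to be set between genes.

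A fatty acid is first activated to an acyl-CoA, and a long-chain acyl group then crosses the inner mitochondrial membrane as acylcarnitine, made by carnitine palmitoyltransferase 1 (CPT1) and turned back into acyl-CoA by CPT2. Malonyl-CoA inhibits CPT1. In the matrix each round of beta-oxidation runs through a dehydrogenase, a hydratase, a second dehydrogenase and a thiolase, with a separate set of enzymes for long and for shorter chains, and in the heart this becomes a main source of ATP after birth, when milk fat replaces placental glucose and lactate.

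The labels do not state whether the replicates of a stage came from separate litters, so the p-values measure the spread between these hearts only. The depth, read from the steps between low FPKM values, was, in units of 1e6 fragments, 25.5 to 37.5 for E18.5d, 27.5 to 29.75 for P1d and 36.5 to 45.0 for P7d. All hearts were labelled male, but 2 E18.5d and 2 P7d hearts had *Xist* at 58.0 to 97.0 FPKM with the Y-linked genes at 0. All 3 P1d hearts had *Xist* at 0.07 to 0.11 FPKM and expressed the Y-linked genes, so comparisons with P1d were not balanced in this respect. With *Xist* as a covariate, 23 of the genes were still higher at P1d than at E18.5d, and 26 at P7d. E18.5d and P7d had equal numbers of hearts with *Xist*, so the covariate could not move the log2 changes between these stages. The 26 are therefore no check on sex. The limma calls lost were those of *Acad10* and *Etfa* at P1d (adjusted p = 0.1475 and 0.1555) and of *Acadm* at P7d over P1d (adjusted p = 0.1156). The median log2 change of all 13618 genes tested was -0.06 at P1d and -0.17 at P7d against E18.5d, and scaling by the median of ratios moved the latter by 0.18, to 0.01. Protein-coding nuclear genes held 36.5% to 37.3% of the summed FPKM at E18.5d and 29.6% to 34.5% later.

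The genes of mitochondrial FA oxidation were for the most part higher after birth. At P1d, 25 of the 34 tested genes were higher and 1 was lower than at E18.5d by limma, while over all genes tested 18.4% were higher and 27.6% lower. At P7d, 26 stood above E18.5d and 4 below, against 12.5% and 36.9% of all genes. The gene lower at P1d was *Acsl5*, and those lower at P7d were *Acsl3*, *Acsl4*, *Acsl5* and *Acot13*. Their median log2 change was 0.73 at P1d and 0.90 at P7d, which is 0.79 and 1.07 above the median of all genes, and over the 11 other settings of scaling, filter and fit these distances were 0.65 to 0.89 and 0.95 to 1.11. A log2 change of at least 1 was reached by 14 genes at P1d, against 1.91% of all genes, and by 14 at P7d, against 1.96%. Summed over the 35 genes, the level was 3009 to 3239 FPKM in the E18.5d hearts, then 5311 to 5579 FPKM at P1d and 5598 to 5860 FPKM at P7d. As a share of the FPKM of protein-coding nuclear genes this was 0.598% to 0.621%, then 1.05% to 1.09%, then 1.24% to 1.29%, and the stages did not overlap. In RNA of a heart in bulk, more cells of a type and more RNA per cell cannot be told apart.

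**Figure D1:**
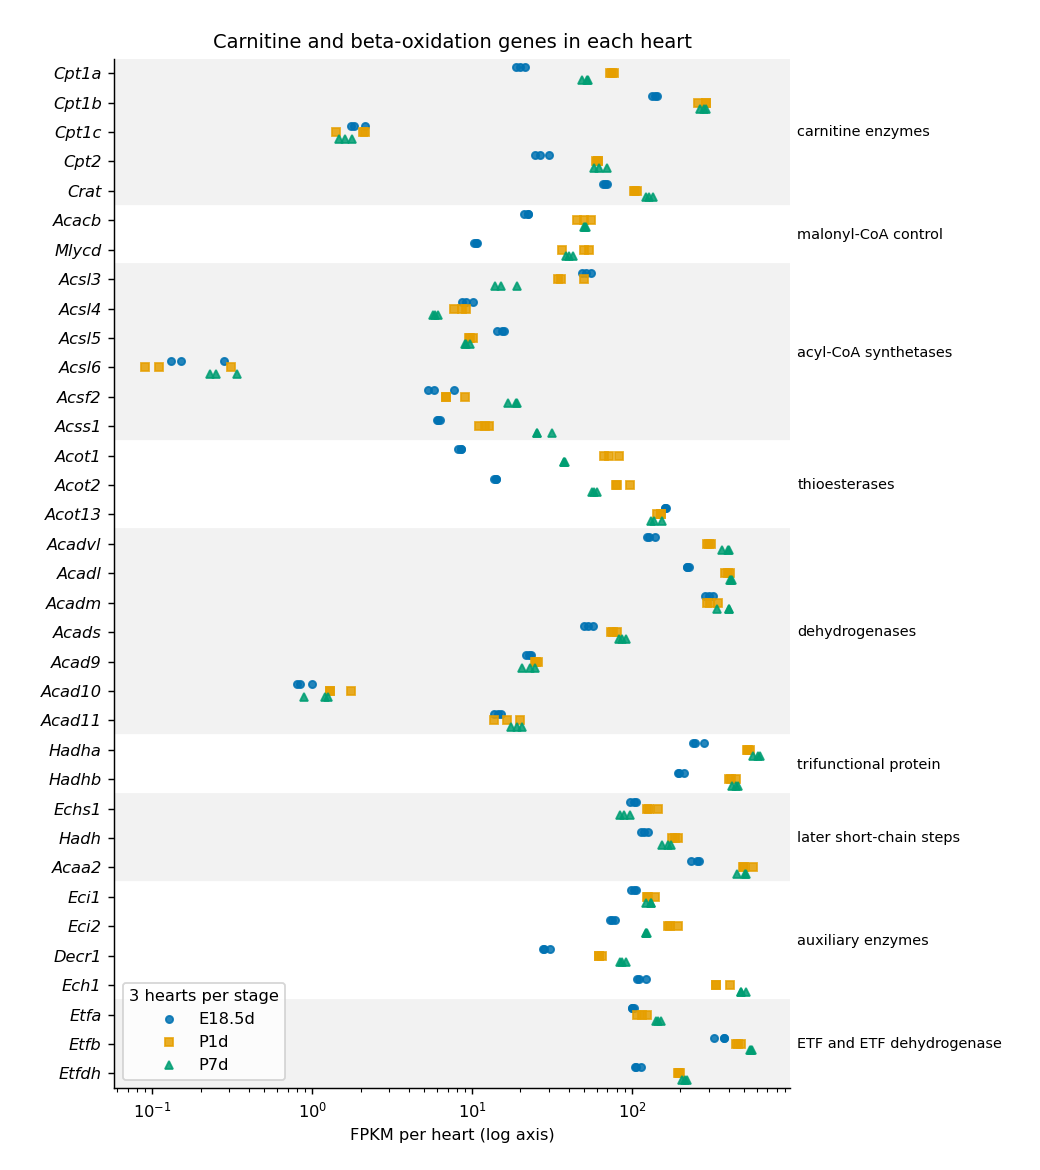
FPKM of each of the 35 genes in each of the 9 hearts, on a log axis, with 1 row per gene in order of step and 1 point per heart in the colour of its stage. For most genes the P1d and P7d points lie to the right of the E18.5d points, with *Acot1* moving from 8.17 to 8.51 FPKM at E18.5d to 66.5 to 83.2 FPKM at P1d, while the points of *Acsl3* move to the left, to 13.8 to 19.1 FPKM at P7d.

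Among the carnitine enzymes, *Cpt1a*, *Cpt1b*, *Cpt2* and *Crat* were all higher at both postnatal stages and *Cpt1c* was not called. *Cpt1a* (ENSMUSG00000024900.4, chr19:3322334-3385733 of GRCm38, as all coordinates here, plus strand) encodes the CPT1 isozyme that predominates in liver. Its hearts were at 21.3, 19.8 and 18.8 FPKM at E18.5d, at 76.6, 74.6 and 73.0 FPKM at P1d, and at 53.2, 52.3 and 48.6 FPKM at P7d. No hearts overlapped between any stages, and P1d was the highest. The log2 change of *Cpt1a* was 1.85 (SE 0.06, adjusted p = 2.09e-07) at P1d and 1.32 (SE 0.06, adjusted p = 6.52e-07) at P7d against E18.5d, and from P1d to P7d it fell by 0.53 on the log2 scale (adjusted p = 0.000186).

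*Cpt1b* (ENSMUSG00000078937.8, chr15:89416405-89425863, minus strand) encodes the muscle isozyme. It was at 144, 138 and 132 FPKM in the E18.5d hearts, at 289, 291 and 259 FPKM at P1d and at 280, 290 and 264 FPKM at P7d. The postnatal stages overlapped each other and lay above all E18.5d hearts, with a log2 change of 1.01 (SE 0.07) at both (adjusted p = 5.69e-06 and 4.4e-06). Of the 50-base stretches of the *Cpt1b* transcripts 78.6% also occur in an overlapping annotated gene, *Gm44502*. The deposited values hold none under that name, so whether any fragments of *Cpt1b* were lost to it is uncertain. *Cpt1b* was the more abundant isozyme in every heart, and its ratio to *Cpt1a* within a heart was 6.75 to 7.02 at E18.5d, 3.55 to 3.90 at P1d and 5.27 to 5.55 at P7d. These 3 ranges did not overlap, and an exact two-sided permutation test of 3 hearts against 3 gave p = 0.1 for each pair of stages, the smallest value it allows (0.165 after adjustment over the 33 ratio tests).

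*Cpt2*, whose product reforms acyl-CoA inside the inner membrane, had a mean of 27.2 ± 2.89 FPKM (SD, n = 3 hearts per stage here and below) at E18.5d, then 60.3 ± 1.00 FPKM at P1d and 63.1 ± 5.75 FPKM at P7d. This was a rise of 1.13 at P1d and 1.19 at P7d on the log2 scale (SE 0.09, adjusted p = 1.32e-05 and 8.62e-06). Its ratio to *Cpt1b* was 0.197 ± 0.0128 before birth, 0.216 ± 0.0167 at P1d and 0.227 ± 0.0179 at P7d, and the hearts of all stages overlapped. *Crat*, the carnitine acetyltransferase that handles short chains, rose at each stage, from 68.0 ± 2.00 to 105 ± 2.64 and 128 ± 7.02 FPKM. *Cpt1c*, an isozyme best known from brain, was at 1.41 to 2.14 FPKM in all hearts, with log2 changes of -0.02 and -0.15 from E18.5d (adjusted p = 0.901 and 0.346).

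Both enzymes of the malonyl-CoA pool next to CPT1 were higher after birth. *Mlycd*, the decarboxylase that removes malonyl-CoA, was at 10.6, 10.7 and 10.3 FPKM in the E18.5d hearts, at 53.4, 49.8 and 36.6 FPKM at P1d and at 42.5, 38.7 and 40.4 FPKM at P7d. The postnatal hearts lay well above the E18.5d hearts and overlapped each other. Its log2 change was 2.03 (SE 0.12, adjusted p = 3.7e-06) at P1d and 1.85 (SE 0.12, adjusted p = 4.19e-06) at P7d against E18.5d. Between P7d and P1d the log2 change was -0.18 (adjusted p = 0.25), but -0.34 (adjusted p = 0.00334) without P1d replicate 3, the lowest P1d heart. *Acacb*, the acetyl-CoA carboxylase at the mitochondrial surface that makes malonyl-CoA, rose from 21.8 ± 0.782 to 50.3 ± 5.10 FPKM at P1d and was at 50.7 ± 0.452 FPKM at P7d.

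The ratio of *Mlycd* to *Acacb* was 0.483 ± 0.0223 before birth, 0.922 ± 0.10 at P1d and 0.798 ± 0.0349 at P7d. Neither postnatal stage overlapped E18.5d (exact permutation test, p = 0.1, the smallest possible). *Acaca*, the cytosolic carboxylase of fatty acid synthesis, moved the other way, at 26.5, 25.2 and 25.3 FPKM at E18.5d, then 16.3, 14.3 and 19.8 FPKM at P1d and 14.4, 10.6 and 12.96 FPKM at P7d. The ratio of *Acacb* to *Acaca* accordingly went from 0.852 ± 0.0531 to 3.06 ± 0.672 and 4.08 ± 0.637, with both postnatal stages above every E18.5d heart.

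The acyl-CoA synthetases were the group with most falls. *Acsl3*, which works at the endoplasmic reticulum and on lipid droplets, was at 55.5, 51.7 and 48.7 FPKM at E18.5d, at 34.5, 35.8 and 49.7 FPKM at P1d and at 15.04, 13.8 and 19.1 FPKM at P7d. The P7d hearts lay below all others, whereas P1d replicate 3 lay within the E18.5d range. *Acsl3* fell by 1.65 on the log2 scale at P7d against E18.5d (SE 0.15, adjusted p = 2.84e-05) and by 1.26 against P1d (adjusted p = 0.00019). At P1d its log2 change was -0.39 (adjusted p = 0.0562), and it was called lower without P1d replicate 3 (-0.55, adjusted p = 0.00615) and without P7d replicate 3 (adjusted p = 0.0405).

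*Acsl4*, which prefers arachidonate, was at 9.29 ± 0.751 FPKM at E18.5d, then 8.48 ± 0.776 FPKM at P1d and 5.90 ± 0.214 FPKM at P7d, a fall at P7d of 0.58 on the log2 scale from E18.5d (adjusted p = 0.000478). *Acsl5* fell between E18.5d and P1d, from 15.1 ± 0.764 to 9.78 ± 0.274 FPKM, a decrease it kept at P7d (9.29 ± 0.405). In contrast, a pair of mitochondrial synthetases for shorter chains rose. *Acss1*, which activates acetate, was at 6.13 ± 0.145 FPKM at E18.5d, then 11.9 ± 0.817 FPKM at P1d and 27.5 ± 3.55 FPKM at P7d, with log2 changes from E18.5d of 0.86 and 2.00 (SE 0.09, adjusted p = 8.7e-05 and 5.31e-07). *Acsf2*, of the medium-chain class, went from 6.24 ± 1.27 to 18.2 ± 1.26 FPKM at P7d (log2 change 1.42, SE 0.14, adjusted p = 4.26e-05). At P1d it was at 7.59 ± 1.25 FPKM and was not called (0.25, adjusted p = 0.16), but it was without E18.5d replicate 1, its highest E18.5d heart (0.39, adjusted p = 0.0331). Of the 50-base stretches of *Acsf2* 33.3% lie also in *Gm5540*, which was at 0.02 to 0.16 FPKM.

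The main long-chain synthetase of heart, *Acsl1*, was not among the 35 genes and is given here for comparison. It was at 92.1 to 104 FPKM at E18.5d, then 259 to 284 FPKM at P1d and 270 to 296 FPKM at P7d. Its ratio to *Acsl3* was 1.90 ± 0.112 before birth, 7.07 ± 1.61 at P1d and 18.2 ± 3.67 at P7d, with no overlap between stages (exact permutation test, p = 0.1 for each pair, the smallest possible). The sum of the 6 synthetases among the 35 genes was 88.9 ± 4.79 FPKM at E18.5d and 77.2 ± 3.31 at P7d, the only group whose sum was lower at P7d than at E18.5d.

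The steepest rise at P1d was that of the acyl-CoA thioesterases *Acot1* and *Acot2*, which hydrolyse long-chain acyl-CoA in the cytosol and in the mitochondrial matrix. Their genes lie on the plus strand of chr12, *Acot2* (ENSMUSG00000021226.7) at 83987861 to 83993873 and *Acot1* (ENSMUSG00000072949.5) at 84009490 to 84018371, with 15616 bases between them. *Acot1* was at 8.17, 8.51 and 8.46 FPKM at E18.5d, at 83.2, 72.1 and 66.5 FPKM at P1d and at 37.7, 38.1 and 37.5 FPKM at P7d. The P1d mean was thus 8.82 times that at E18.5d and the P7d mean 4.51 times, with no overlap between any stages. The log2 change was 2.99 (SE 0.08, adjusted p = 6.51e-08) at P1d and 2.05 (SE 0.08, adjusted p = 2.24e-07) at P7d against E18.5d, and from P1d to P7d *Acot1* fell by 0.94 (adjusted p = 3.04e-05).

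*Acot2* followed the same order of stages, with 14.1, 14.0 and 13.7 FPKM at E18.5d, then 96.9, 79.0 and 80.6 FPKM at P1d and 60.1, 57.8 and 56.1 FPKM at P7d. Its log2 change from E18.5d was 2.53 at P1d and 1.98 at P7d (SE 0.08, adjusted p = 1.43e-07 and 2.58e-07), and it fell by 0.55 between P1d and P7d (adjusted p = 0.000554). The transcripts of both genes are alike, and 24.5% of the 50-base stretches of *Acot2* occur in *Acot1* and 13.6% of those of *Acot1* in *Acot2*, so how fragments were split between them is uncertain. The third thioesterase, *Acot13*, which associates with mitochondria, was already abundant at E18.5d, at 160 to 164 FPKM. At P7d its hearts were at 131 to 153 FPKM, a fall of 0.20 on the log2 scale (adjusted p = 0.025). This call was lost without any 1 of E18.5d replicates 1, 2 and 3 and P7d replicates 1 and 2 (adjusted p = 0.0524 to 0.0948), and with columns scaled by the median of ratios the change was 0.01.

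The acyl-CoA dehydrogenases open each round, each on its own range of chain lengths, and the 4 main ones were all higher at P7d than before birth. *Acadvl*, for very long chains, was at 139, 127 and 124 FPKM at E18.5d, at 293, 311 and 302 FPKM at P1d and at 401.0, 397 and 363 FPKM at P7d. The 3 stages did not overlap. Its log2 change from E18.5d was 1.21 at P1d and 1.56 at P7d (SE 0.06, adjusted p = 2.3e-06 and 3.4e-07), and from P1d to P7d it rose again, by 0.36 (adjusted p = 0.00204). Of its 50-base stretches 26.9% lie also in *Dvl2*, a neighbour at 4.0 to 7.53 FPKM. *Acadl*, for long chains, went from 223 ± 3.81 FPKM at E18.5d to 395 ± 15.6 FPKM at P1d and 415 ± 5.92 FPKM at P7d (log2 changes 0.82 and 0.90, SE 0.05).

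*Acadm*, for medium chains, was the second most abundant of the 35 genes at E18.5d, after *Etfb*, and changed least among the main dehydrogenases. Its hearts were at 303, 284 and 319 FPKM at E18.5d, at 345, 293 and 308 FPKM at P1d and at 403, 338 and 405 FPKM at P7d. E18.5d and P1d overlapped, with a log2 change of 0.06 (adjusted p = 0.61) that was -0.11 with columns set to an equal sum. At P7d *Acadm* was higher than at E18.5d by 0.34 (SE 0.09, adjusted p = 0.0121, but 0.133 with an equal sum). Its call against P1d (0.28, adjusted p = 0.0321) did not hold when P1d replicate 2 or 3, or P7d replicate 1 or 3, was left out (adjusted p = 0.0745 to 0.108).

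*Acads*, for short chains, rose from 53.4 ± 3.28 to 76.8 ± 3.18 FPKM at P1d and was at 86.9 ± 4.62 FPKM at P7d, with log2 changes from E18.5d of 0.52 and 0.69 (SE 0.07). The P7d hearts of *Acads* lay above the P1d hearts without passing the threshold (0.18, adjusted p = 0.0533), which they passed without E18.5d replicate 3, P1d replicate 2 or P7d replicate 3 (adjusted p = 0.0498, 0.0424 and 0.0497) and under all 4 other scalings (0.28 to 0.34, adjusted p = 0.000989 to 0.0198). Within a heart, *Acadvl* was 2.44 ± 0.186 times *Acads* before birth, 3.93 ± 0.0563 times at P1d and 4.45 ± 0.149 times at P7d. The stages did not overlap in this ratio (exact permutation test, p = 0.1 for each pair, the smallest possible).

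The remaining dehydrogenases were lower in level. *Acad9*, which also serves in the assembly of complex I, was at 20.5 to 25.7 FPKM in all hearts and was not called in any comparison (log2 changes of 0.15, 0.01 and -0.14), except at P1d with the median of ratios (0.22, adjusted p = 0.0402). Transcripts of other genes hold 14.6% of its 50-base stretches. *Acad11* was at 14.5 ± 0.701, 16.6 ± 3.09 and 19.0 ± 1.53 FPKM. Its call at P7d over E18.5d (0.37, adjusted p = 0.0268) did not hold when any 1 of E18.5d replicates 1 and 3 and P7d replicates 1 and 2 was left out (adjusted p = 0.0615, 0.0802, 0.0886 and 0.0693). At P1d its log2 change was 0.17 (adjusted p = 0.255), and it was called without P1d replicate 3 (0.30, adjusted p = 0.0336). Without P1d replicate 2 *Acad11* was also called higher at P7d than at P1d (adjusted p = 0.0275, against 0.207 with all hearts). *Acad10* was near the filter, at 0.80 to 0.99 FPKM at E18.5d and 1.29 to 1.74 FPKM at P1d, and its call at P1d (0.37, adjusted p = 0.0356) did not hold when E18.5d replicate 2 or 3, or P1d replicate 2, was left out (adjusted p = 0.0914, 0.0956 and 0.111). Of its 50-base stretches 16.8% lie also in *Acad12*, which was at 3.43 to 5.75 FPKM, above *Acad10* itself, so its counts are uncertain.

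**Figure D2:**
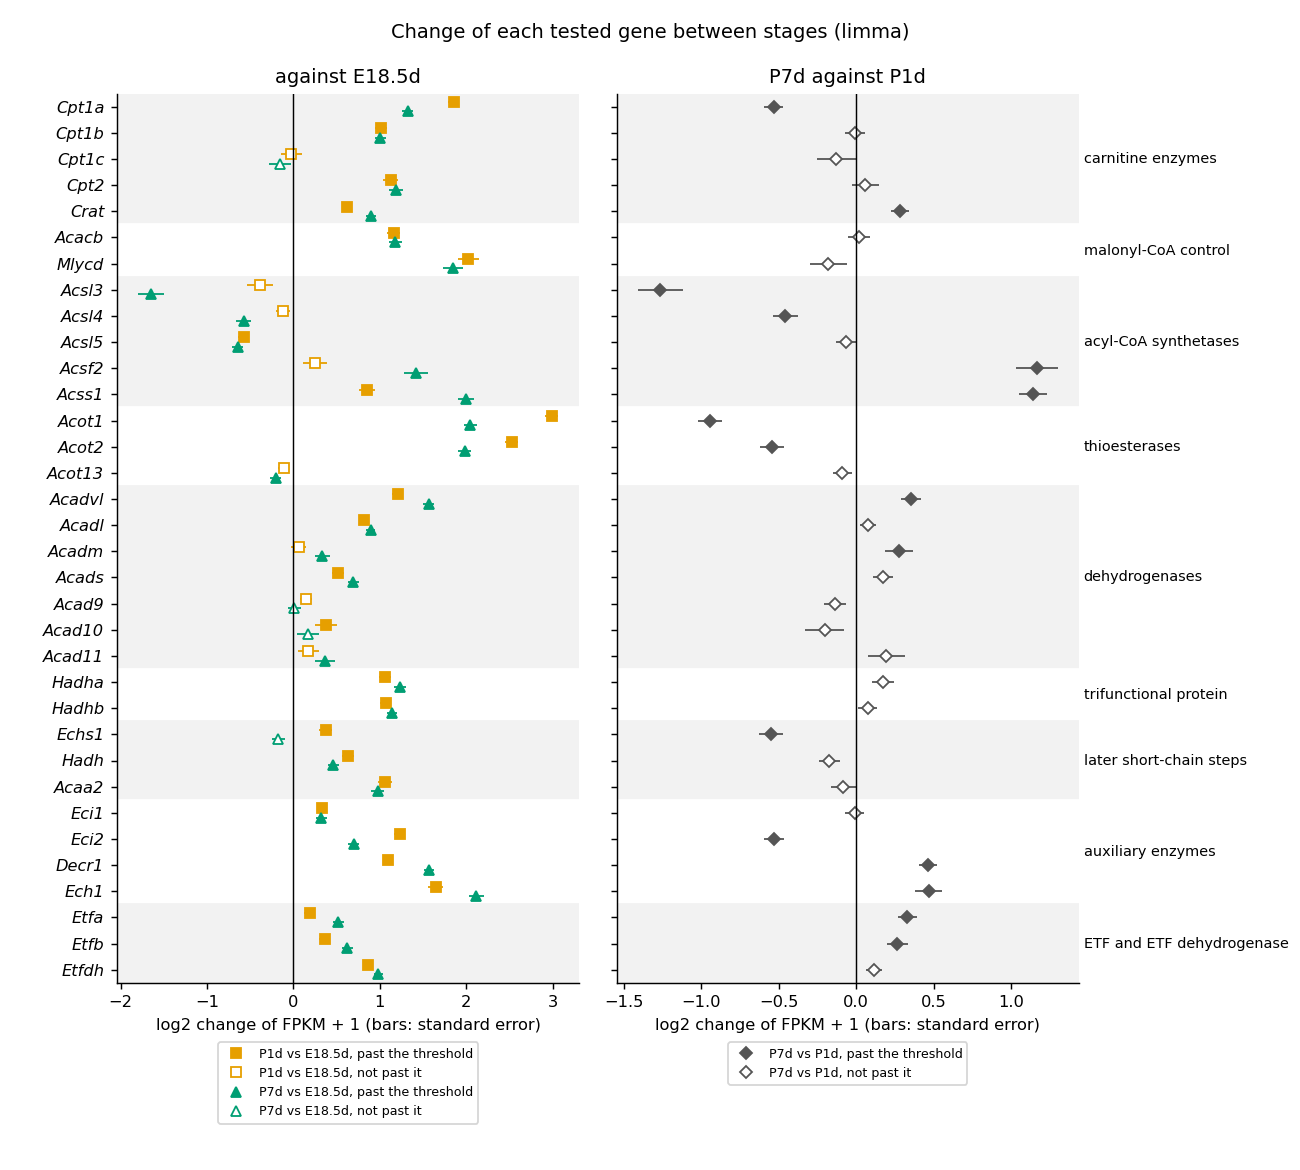
Log2 change of each of the 34 tested genes on the log2(FPKM + 1) scale, at P1d (squares) and P7d (triangles) against E18.5d on the left and at P7d against P1d (diamonds) on the right, with bars of 1 standard error from limma and filled symbols for an adjusted p under 0.05. *Acot1* stands highest at P1d (2.99) and *Ech1* at P7d (2.12), and *Acsl3* lowest at P7d (-1.65).

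The trifunctional protein carries out the last 3 reactions of each round on long chains. Its alpha subunit *Hadha* (ENSMUSG00000025745.11, minus strand) lies at chr5:30118304-30155162 and its beta subunit *Hadhb* (ENSMUSG00000059447.13, plus strand) at chr5:30155248-30184593, head to head. Their first bases in GENCODE M21 have 85 bases between them, and the RefSeq windows from 250 bases before to 50 after each start share 228 bases. The *Hadhb* window (chr5:30155003-30155302 of GRCm38.p6, plus strand, 5′ to 3′) is shown because the first bases that GENCODE gives for both genes lie in it, with the 85 bases between them in capitals. RefSeq places the start of *Hadha* outside this window.
Hadhb: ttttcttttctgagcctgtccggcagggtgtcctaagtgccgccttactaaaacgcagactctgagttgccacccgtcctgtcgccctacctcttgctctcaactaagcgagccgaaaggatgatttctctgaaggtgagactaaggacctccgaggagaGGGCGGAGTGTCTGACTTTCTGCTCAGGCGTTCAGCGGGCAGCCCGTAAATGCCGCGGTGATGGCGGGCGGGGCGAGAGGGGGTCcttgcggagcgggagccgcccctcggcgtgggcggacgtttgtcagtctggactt

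*Hadha* was at 280, 246 and 240 FPKM at E18.5d, at 523, 528 and 549 FPKM at P1d and at 626, 611 and 569 FPKM at P7d. *Hadhb* was at 211, 197 and 194 FPKM at E18.5d, at 414, 447 and 403 FPKM at P1d and at 447, 461 and 422 FPKM at P7d. For both, every postnatal heart lay above every E18.5d heart, and *Hadha* was the most abundant of the 35 genes at P1d and at P7d. The log2 change from E18.5d was 1.06 at P1d and 1.24 at P7d for *Hadha* (SE 0.07, adjusted p = 5.92e-06 and 1.79e-06), and 1.07 and 1.14 for *Hadhb* (SE 0.06, adjusted p = 3.64e-06 and 1.52e-06). The P7d hearts of *Hadha* lay above its P1d hearts (0.17, adjusted p = 0.0704), a difference called without E18.5d replicate 1 (adjusted p = 0.0439) and under all 4 other scalings (0.30 to 0.41, adjusted p = 0.000545 to 0.0375).

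The proportion of the subunits in a heart did not separate the stages. The ratio of *Hadha* to *Hadhb* was 1.27 ± 0.0489 before birth, 1.27 ± 0.090 at P1d and 1.36 ± 0.0381 at P7d, and the hearts of all stages overlapped (exact permutation test, p = 1 for P1d and 0.2 for P7d against E18.5d). With 3 hearts against 3 this test cannot pass 0.05. Of the 50-base stretches of *Hadhb* 18.1% lie also in *Gm13910*, which was at 0.68 to 2.70 FPKM.

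The enzymes of the same steps for medium and short chains were all higher at P1d than before birth. *Acaa2*, the thiolase, was at 260, 253 and 234 FPKM at E18.5d, at 493, 568 and 499 FPKM at P1d and at 509, 511 and 452 FPKM at P7d. Both postnatal stages lay above E18.5d (log2 changes 1.06 and 0.97, SE 0.08, adjusted p = 1.13e-05 and 1.57e-05) and overlapped each other. *Hadh*, the hydroxyacyl-CoA dehydrogenase, was at 119 ± 5.68 FPKM at E18.5d, then 185 ± 8.95 FPKM at P1d and 164 ± 10.7 FPKM at P7d, with log2 changes of 0.64 and 0.46 from E18.5d (adjusted p = 8.37e-05 and 0.000457).

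*Echs1*, the short-chain hydratase, was the only gene of these steps that did not stay up. Its hearts were at 103, 105 and 97.2 FPKM at E18.5d, at 124, 145 and 127 FPKM at P1d and at 97.2, 89.1 and 83.6 FPKM at P7d. It rose at P1d (0.37, SE 0.08, adjusted p = 0.00357, but 0.067 with columns set to an equal sum) and fell between P1d and P7d by 0.55 (adjusted p = 0.000497). The P7d hearts lay just below the E18.5d hearts (log2 change -0.18, adjusted p = 0.0832). This difference was called without P1d replicate 2 or P7d replicate 1 (adjusted p = 0.0447 and 0.0473). It was also called with an equal sum (-0.22, adjusted p = 0.0485), but was 0.03 with the median of ratios.

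All 4 auxiliary enzymes, which handle the double bonds of unsaturated fatty acids, were higher at both postnatal stages. *Ech1* (ENSMUSG00000053898.12, chr7:28825217-28832247, plus strand), a dienoyl-CoA isomerase, was at 121, 110 and 107 FPKM at E18.5d, at 332, 406 and 332 FPKM at P1d and at 482, 514 and 480 FPKM at P7d. The stages did not overlap. Its log2 change was 1.65 at P1d and 2.12 at P7d against E18.5d (SE 0.09, adjusted p = 2.28e-06 and 3.4e-07), and 0.47 between P1d and P7d (adjusted p = 0.00225). In order of mean FPKM *Ech1* went from rank 11 of the 35 genes at E18.5d to rank 6 at P1d and rank 3 at P7d.

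*Decr1*, the dienoyl-CoA reductase, also rose at both steps, from 28.7 ± 1.5 to 62.7 ± 1.86 and 87.0 ± 3.55 FPKM (log2 changes from E18.5d of 1.10 and 1.57, SE 0.06). Of the enoyl-CoA isomerases, *Eci2* was highest at P1d, at 75.1 ± 2.65, 178 ± 13.2 and 123 ± 1.56 FPKM, and fell between P1d and P7d by 0.53 on the log2 scale (adjusted p = 0.000188). Transcripts of other genes hold 11.1% of its 50-base stretches. *Eci1* was at 102 ± 3.98 FPKM at E18.5d, then 129 ± 7.94 FPKM at P1d and 128 ± 5.21 FPKM at P7d, a rise of 0.33 and 0.32 from E18.5d (adjusted p = 0.00214 and 0.00228), of which the former was not called with columns set to an equal sum (adjusted p = 0.115).

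The electron transfer flavoprotein takes electrons from the main acyl-CoA dehydrogenases above and passes them through its oxidoreductase to ubiquinone. Its subunit *Etfb* was the most abundant of the 35 genes at E18.5d, at 377, 375 and 325 FPKM, and stood at 447, 477 and 457 FPKM at P1d and at 554, 562 and 544 FPKM at P7d. The stages did not overlap, with log2 changes of 0.36 and 0.63 from E18.5d (SE 0.07, adjusted p = 0.00208 and 8.29e-05). With columns set to an equal sum the former was not called (adjusted p = 0.103), and 43.8% of its 50-base stretches lie also in *Gm45233*, at 0.07 to 1.98 FPKM. The other subunit, *Etfa*, was at 101 ± 1.61, 116 ± 8.56 and 145 ± 5.49 FPKM.

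*Etfa* rose by 0.52 at P7d over E18.5d (SE 0.06, adjusted p = 0.000159). Its call at P1d (0.19, adjusted p = 0.0333) was lost without any 1 of E18.5d replicates 1, 2 and 3 and P1d replicates 1 and 3 (adjusted p = 0.0581 to 0.0923), and with an equal sum the change was 0.02. The ratio of *Etfa* to *Etfb* was 0.283 before birth, 0.252 at P1d and 0.263 at P7d, with overlapping hearts. *Etfdh*, the oxidoreductase, rose from 107 ± 4.88 to 196 ± 2.41 FPKM at P1d and was at 213 ± 6.90 FPKM at P7d (log2 changes of 0.87 and 0.98 from E18.5d, SE 0.05, adjusted p = 4.2e-06 and 1.37e-06).

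**Figure D3:**
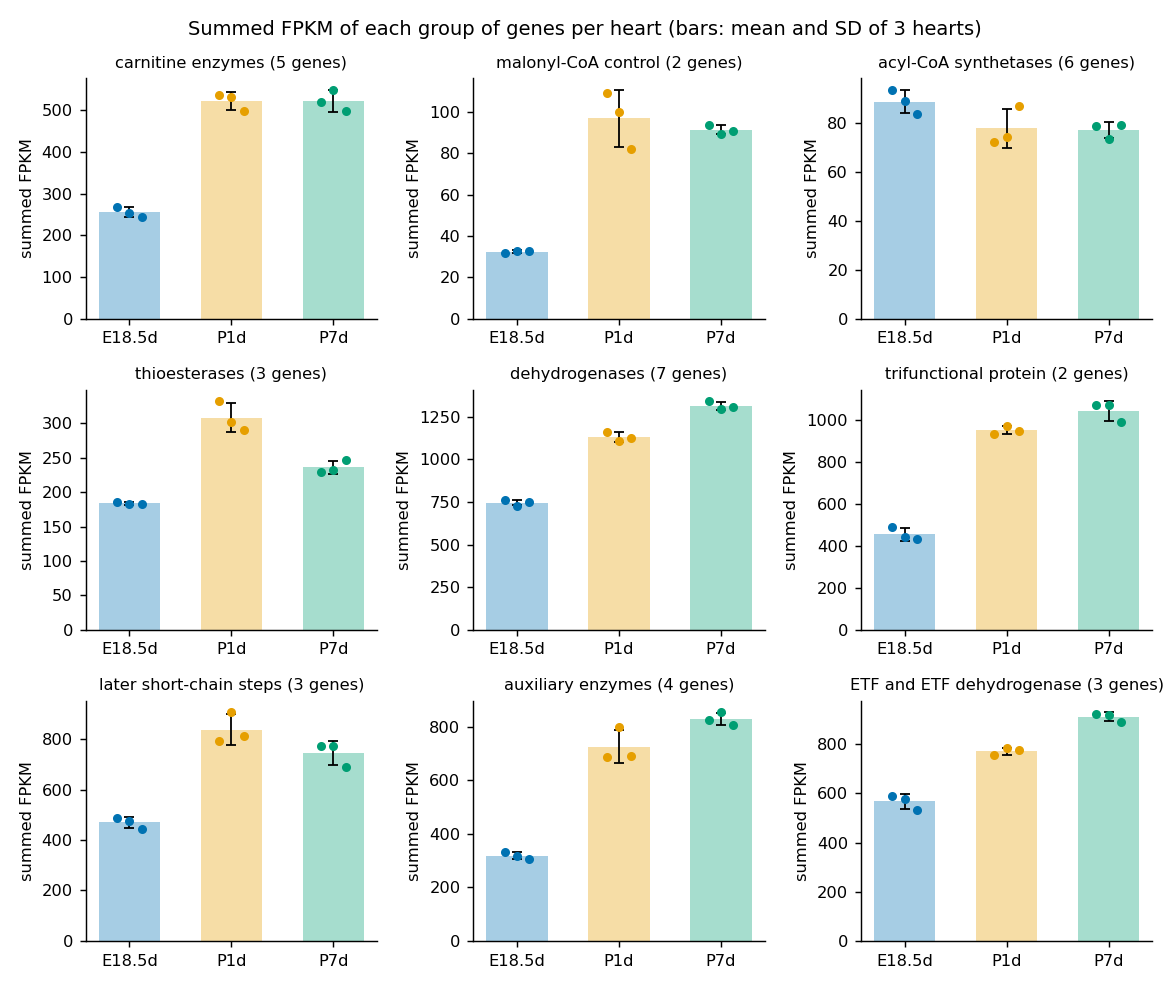
Summed FPKM of the genes of each of the 9 steps in each heart, as points, with the stage mean as a bar from 0 and its SD (n = 3 hearts) as an error bar. The trifunctional protein goes from a mean of 456 to 954 and 1046 FPKM and the auxiliary enzymes from 319 to 726 and 830 FPKM. The acyl-CoA synthetases, without *Acsl1*, stay between 72.4 and 93.6 FPKM in all hearts.

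Between P1d and P7d the 34 genes went both ways, as did all genes tested. By limma 9 of the 34 were higher and 7 lower at P7d, while 15.5% of all genes tested were higher and 28.6% lower. The comparison shares its P1d and P7d hearts with those above. The genes higher at P7d than at P1d were *Crat*, *Acsf2*, *Acss1*, *Acadvl*, *Acadm*, *Decr1*, *Ech1*, *Etfa* and *Etfb*, by 0.27 to 1.17 on the log2 scale. The genes that fell were *Cpt1a*, *Acsl3*, *Acsl4*, *Acot1*, *Acot2*, *Echs1* and *Eci2*. The median log2 change of the 34 genes was 0.0058, against -0.09 for all genes, and it was -0.036 without P1d replicate 3. Under the median of ratios 15 stood higher and 7 lower, and with an equal sum without mitochondrial, haemoglobin and structural RNA genes 17 and 7, the added 8 being *Cpt2*, *Acadl*, *Acads*, *Acad11*, *Hadha*, *Hadhb*, *Eci1* and *Etfdh*. Under these scalings the median of all genes rose too, to 0.02 and 0.05. The shares above are for the columns as deposited, and those of all genes under these scalings are not given here. *Acsl4* was not called with columns set to an equal sum (-0.34, adjusted p = 0.0725).

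**Figure D4:**
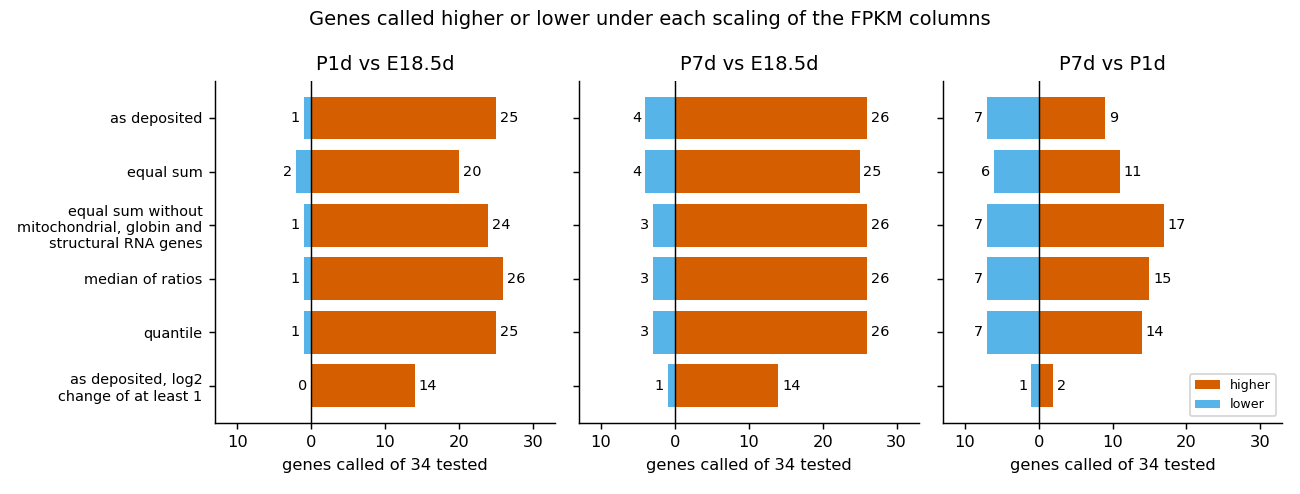
Number of the 34 tested genes called higher (right of 0) or lower (left of 0) by limma in each comparison under each scaling of the FPKM columns, and as deposited with a log2 change of at least 1 in the last row. Over the scalings the number higher is 20 to 26 at P1d and 25 to 26 at P7d against E18.5d, and 9 to 17 for P7d against P1d. Shares of all genes called under the other scalings are not shown.

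By step, the sum of the malonyl-CoA enzymes at P1d was 2.99 times that at E18.5d, of the auxiliary enzymes 2.28 times, of the trifunctional protein 2.09 times and of the carnitine enzymes 2.05 times. The sum of the medium and short chain steps was 1.78 times, and that of the thioesterases 1.68 times the E18.5d mean. A sum follows its most abundant genes, and *Acot13*, not called at P1d, held 161 of the 183 FPKM of the thioesterases at E18.5d. The malonyl-CoA sum joins *Mlycd*, which removes malonyl-CoA, and *Acacb*, which makes it. The acyl-CoA dehydrogenases reached 1.52 times and the flavoproteins 1.36 times the E18.5d mean, while the synthetases, without *Acsl1*, were at 0.876 times. At P7d the trifunctional protein stood at 2.29 times and the auxiliary enzymes at 2.60 times the E18.5d mean. At P7d the sum of the carnitine enzymes was 1.00 times and that of the thioesterases 0.766 times the P1d mean.

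**Figure D5:**
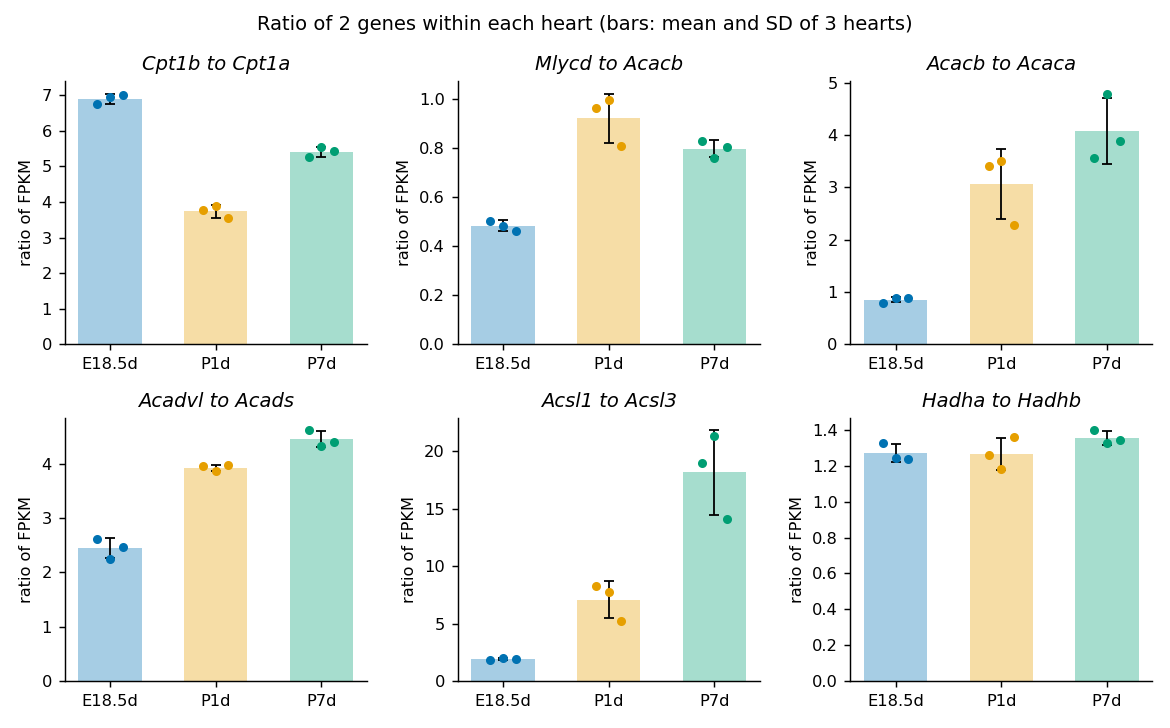
Ratio of FPKM of 6 pairs of genes within each heart, on linear axes from 0, with 1 point per heart, the stage mean as a bar and its SD (n = 3 hearts) as an error bar. The ratio of *Cpt1b* to *Cpt1a* is lowest at P1d (3.55 to 3.90), while the means of *Hadha* to *Hadhb* lie between 1.27 and 1.36.

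Promoters were searched for the letters of 2 motifs that are known from genes of this pathway. RefSeq windows of 300 bases (GRCm38.p6, 250 before and 50 after the start) were given for 29 of the 35 genes, 31 windows in all, and not for *Cpt1b*, *Crat*, *Acot13*, *Acad9*, *Acaa2* and *Decr1*. The estrogen-related receptor motif TCAAGGTCA, on either strand, was in 1 of the 31 windows, of *Acsl6*, and in 0.423% of all 32851 windows. The direct repeat AGGTCANAGGTCA bound by peroxisome proliferator-activated receptors, on either strand with at most 2 of its 12 fixed bases changed, was in 2 of the 31 windows (6.45%) and in 3.86% of all. Both motifs hold the half-site AGGTCA and can overlap. The direct repeats were those of *Echs1* (chr7:140116372-140116671, minus strand) and *Etfa* (chr9:55512194-55512493, minus strand), each with 2 bases changed. A match describes letters only. Both windows are shown 5′ to 3′ on the gene's strand with the match in capitals, which lies on that strand in *Echs1* and on the opposite strand in *Etfa*.
Echs1: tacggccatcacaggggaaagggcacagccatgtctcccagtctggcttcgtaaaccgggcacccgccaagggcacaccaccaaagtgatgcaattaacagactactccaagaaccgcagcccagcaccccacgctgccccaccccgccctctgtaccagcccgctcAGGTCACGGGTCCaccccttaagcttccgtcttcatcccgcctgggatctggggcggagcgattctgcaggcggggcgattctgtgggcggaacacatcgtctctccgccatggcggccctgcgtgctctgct
Etfa: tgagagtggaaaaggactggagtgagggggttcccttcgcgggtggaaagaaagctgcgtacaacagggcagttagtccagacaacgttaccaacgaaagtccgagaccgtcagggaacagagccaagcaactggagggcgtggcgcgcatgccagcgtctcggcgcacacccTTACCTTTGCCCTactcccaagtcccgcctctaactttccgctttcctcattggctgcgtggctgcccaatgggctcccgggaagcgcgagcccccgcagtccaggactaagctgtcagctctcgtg

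Genes beside the pathway were counted from lists of related function, against the same shares of all genes tested as above (18.4% higher and 27.6% lower at P1d, 12.5% and 36.9% at P7d). All 6 genes of fatty acid entry that are not among the 35 were higher at both postnatal stages. *Fabp3*, the heart's fatty acid binding protein, was at 1214 to 1281 FPKM at E18.5d, then 2730 to 2991 FPKM at P1d and 3534 to 3854 FPKM at P7d. *Slc27a1*, a fatty acid transport protein, was at 4.11 to 5.13 FPKM at E18.5d, then 23.4 to 31.5 FPKM at P1d and 19.8 to 21.8 FPKM at P7d. With *Acsl1* these were the largest changes of that list at P7d over E18.5d (log2 1.94 for *Slc27a1*, 1.58 for *Fabp3* and 1.51 for *Acsl1*).

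Of 12 regulators of these genes, 5 stood above E18.5d at P1d and 2 below, and at P7d 3 above and 2 below. When 1 heart was left out these counts were 3 to 5 and 1 to 2 at P1d, and 0 to 3 and 0 to 2 at P7d. They moved by over 1.5 times at P1d with E18.5d replicate 1 or 3 or P1d replicate 1 or 2 left out, and at P7d with any E18.5d replicate, P1d replicate 1 or P7d replicate 2 or 3 left out, and both P7d counts were 0 without P7d replicate 2. The largest changes at P7d were those of *Esrrb* (0.59), *Ppargc1b* (0.39) and *Med1* (-0.37). The calls were lost for *Esrrb* without P7d replicate 2 (adjusted p = 0.0544), for *Ppargc1b* when any 1 of E18.5d replicates 1 and 3 and P7d replicates 2 and 3 was left out (adjusted p = 0.0532 to 0.0865), and for *Med1* without E18.5d or P7d replicate 2 (adjusted p = 0.0578 and 0.0502) and under all 4 other scalings (adjusted p = 0.0659 to 0.212). *Ppara* and *Ppargc1a*, a fatty acid receptor and a coactivator of the pathway, are named here after their values were seen. *Ppara* was at 13.4, 10.9 and 10.4 FPKM at E18.5d, at 6.22, 8.49 and 9.24 FPKM at P1d and at 11.1, 12.3 and 10.7 FPKM at P7d. At P1d it had fallen by 0.49 on the log2 scale (adjusted p = 0.0154). This was no longer called when E18.5d replicate 1 was left out (adjusted p = 0.0573) or with *Xist* as a covariate (adjusted p = 0.0849). *Ppargc1a* was highest at P1d, at 46.3 to 53.3 FPKM against 29.1 to 30.6 at E18.5d and 27.6 to 32.7 at P7d (log2 change at P1d 0.69, adjusted p = 0.000108).

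Of the 7 tested genes of AMP-activated kinase and *Acaca*, which lie upstream of malonyl-CoA, 2 were higher and 3 lower at P1d, and 1 was higher and 4 lower at P7d. *Acaca* fell by 0.98 and *Prkaa2* by 0.44 at P7d, and *Prkab1* rose by 0.50. Of 5 tested dehydrogenases of other pathways that also feed the electron transfer flavoprotein, 2 were lower at P7d, *Gcdh* (-0.39) and *Ivd* (-0.26), and at P1d their log2 changes were -0.16 to 0.21 without a call by limma (adjusted p = 0.119 to 0.931). With the median of ratios neither *Gcdh* nor *Ivd* was called at P7d (adjusted p = 0.0663 and 0.654), and *Ivd* was not called with E18.5d replicate 1, E18.5d replicate 2 or P7d replicate 3 left out (adjusted p = 0.0773 to 0.0838). Of 13 tested peroxisomal oxidation genes, 9 were higher and 1 lower at P1d and 5 were higher at P7d, with the largest changes those of *Abcd3* (0.58), *Scp2* (0.54) and *Ehhadh* (0.39). The count at P7d was 3 without E18.5d replicate 3, P7d replicate 2 or P7d replicate 3, and 3 to 7 over all hearts left out in turn. The call of *Ehhadh* was lost without E18.5d replicate 3 or any 1 of the P7d replicates (adjusted p = 0.0514 to 0.0942). Of 10 genes of propionyl-CoA and branched acyl-CoA use, 4 were higher and 1 lower at P1d and 3 higher and 2 lower at P7d, with *Echdc3* (0.67), *Echdc2* (0.66) and *Mmut* (-0.42) changing most. Of the 8 tested genes among other synthetases and thioesterases, 5 were higher at P1d, and 2 were higher (*Acot7* 0.66, *Acsf3* 0.39) and 3 lower at P7d, led by *Acot11* (-0.94). At P1d 3 were higher when E18.5d replicate 2, E18.5d replicate 3 or P1d replicate 1 was left out.

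Markers of cell types moved beside these genes. Their counts stand against 18.4% of all genes tested higher and 27.6% lower at P1d, and 12.5% and 36.9% at P7d. The summed level of 10 cardiomyocyte markers was 35538 to 37913 FPKM at E18.5d, then 40397 to 45491 FPKM at P1d and 43572 to 45369 FPKM at P7d, with 6 of the 10 higher at P1d, and 6 higher and 1 lower at P7d. The largest rise was that of *Myh6*, from a mean of 3220 to 8318 FPKM at P7d, while *Tnnt2* had a log2 change of -0.54 (adjusted p = 0.000771), and *Actc1*, *Myl2* and *Ttn* were not called at either stage. Of 8 brown fat markers 5 could be tested and all 5 were higher at P7d than at E18.5d. The sum of the 8, mostly *Cox7a1* and *Fabp4*, was 955 to 978, then 1197 to 1269, then 1220 to 1301 FPKM. *Cox7a1* had stage means of 709, 682 and 845 FPKM, and *Fabp4* of 253, 527 and 393 FPKM. *Fabp4* and *Adipoq* were called lower at P7d than at P1d (log2 changes -0.42 and -0.78). In the same comparison *Ucp1* and *Cox7a1* were called higher (2.50 and 0.31), and *Cidea* was not called (0.24). The defining brown fat gene *Ucp1* was listed at 0 in the E18.5d hearts, at 0 to 1.31 FPKM at P1d and at 5.77 to 7.26 FPKM at P7d, and *Elovl3* was at most 0.06 FPKM in all hearts. Of 6 tested skeletal muscle markers 4 were lower at P1d and 5 at P7d than at E18.5d. The exception at P7d, *Acta1*, was called higher at P7d than at P1d (0.61, adjusted p = 0.0277). The sum of the 7 listed, mostly *Ckm*, was 1911 to 1947 FPKM at E18.5d and 1535 to 1642 FPKM at P7d. *Mylpf*, *Tnnt3*, *Tnni2* and *Myh8* were at 7.96 FPKM or less in all hearts, so the sum says little of them. Of 7 endothelial markers 3 were higher and 1 lower at P1d and 5 higher and 1 lower at P7d, with a sum of 413 to 447 FPKM at E18.5d and 543 to 562 FPKM at P7d, and of 5 tested macrophage markers 4 were higher at P1d and 1 at P7d. The airway gene *Scgb3a2* was at 53.2 and 127 FPKM in E18.5d replicates 1 and 2 and at 179 FPKM in P1d replicate 1, against at most 1 FPKM in the other hearts. Liver markers summed to 37.5 FPKM in P1d replicate 2 and to 2.83 to 9.58 FPKM in the other hearts. The fibroblast sum was 2035 to 2135 FPKM at E18.5d, then 1714 to 2275 FPKM at P1d and 2747 to 2830 FPKM at P7d. Of its 8 markers 0 were higher and 3 lower at P1d, and 3 were higher and 0 lower at P7d. Of 6 smooth muscle and pericyte markers 2 were higher at P1d, and 3 were higher and 2 lower at P7d. Of 6 erythroid markers 0 were called against E18.5d at either stage. The part of these cell types in the changes above was not tested.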

How the data were processed

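The authors deposited FPKM values of 48820 genes, rounded to 2 decimals, with 1 column per heart, made from NEBNext libraries of total RNA. The submitters' processing notes name STAR and GRCm38 (mm10), without versions of the aligner. The counting tool and its use of strand are not given in the sources used here. Columns were assigned to hearts, and hearts to stages, by label, and none was left out. Names and positions came from GENCODE M21 by identifier. The 35 genes, the gene and marker lists and the tests were chosen with earlier results of these data known.

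In R 4.3.3, log2(FPKM + 1) of the 13618 genes whose mean was 1 FPKM or more was fitted by limma 3.58.1 (lmFit, then contrasts.fit and eBayes with trend), all 9 hearts in 1 fit without covariates, two-sided, with Benjamini-Hochberg adjustment over these genes and a threshold of 0.05. This scale understates changes of genes with low FPKM. Log2 changes in the text are from this fit unless called a ratio. Ratios within a heart (11 pairs, 33 tests) were compared by exact two-sided permutation in scipy 1.17.1 (Python 3.11.15). All 35 genes are named, and of each other list the 3 largest changes at P7d over E18.5d among called genes without overlap between the hearts of both stages, besides 2 regulators named after their values were seen. Depth was estimated from the steps between low FPKM values, of which 82.2% to 86.9% came out whole within 0.1 fragment, and 3 fragments on a kilobase are then 0.0667 to 0.118 FPKM. Shared 50-base stretches were counted in GENCODE M21 transcripts on either strand. The fit was tested on simulated data. Alternatives were 4 scalings of the columns, no filter, a filter at 5 FPKM, a pseudocount of 0.1, eBayes without trend, only the stages compared, the replicate number as a block, an *Xist* covariate, each heart left out in turn, and a minimum log2 change of 1.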

Additional observations from a re-analysis of the deposited data

How the results depend on the processing

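Of 2136 values of a single gene among the 35 under the alternatives, 1974 kept their direction and their side of the threshold, 81 lost and 39 gained a call, and 42 changed sign, all of them values that had not passed the threshold apart from *Acot13* at P7d over E18.5d. Against E18.5d, the genes higher numbered 14 with a log2 change of at least 1 in either comparison, 20 at P1d with an equal sum (without *Acad10*, *Echs1*, *Eci1*, *Etfa* and *Etfb*) and 23 to 25 at P1d when 1 heart was left out. Genes lower at P1d numbered 2 with a mean of at least 5 FPKM, with an equal sum and with the replicate block, 1 to 2 when 1 heart was left out, and 0 at a log2 change of at least 1, where 1 was lower at P7d. For P7d against P1d, 17 were higher with an equal sum without mitochondrial, haemoglobin and structural RNA genes, 15 with the median of ratios, 14 with quantile normalization, and at a log2 change of at least 1, 2 were higher and 1 lower. The shares of all genes called under these settings in this comparison are not given here. The median log2 change of all genes was 0.05, 0.02 and -0.0082 under these scalings in turn, against -0.09 as deposited. The cause of these differences was not tested.

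The median log2 change at P1d was 0.64 without a filter, 0.84 with a mean of at least 5 FPKM, 0.55 with an equal sum, 0.81 with the median of ratios, 0.79 with quantile normalization and 0.68 with *Xist* as a covariate. At P7d over E18.5d it was 0.85 with an equal sum, 1.05 with that sum without mitochondrial, haemoglobin and structural RNA genes, 1.11 with the median of ratios and 1.09 with quantile normalization, and for P7d over P1d it was 0.13, 0.17, 0.14 and 0.16 in the same order and -0.036 to 0.0325 when 1 heart was left out.

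The values that changed sign were at most 0.20 from 0 as reported. They are given with, as ranges, the values when 1 heart was left out. At P1d these were *Cpt1c* (0.028 with the median of ratios, 0.065 with quantile normalization, -0.092 to 0.099 when 1 heart was left out), *Acadm* (-0.11 with an equal sum, -0.0056 to 0.11 when 1 heart was left out), *Acad9* (-0.018 with an equal sum, 0.13 to 0.17) and the log2 ratio of *Hadha* to *Hadhb* (-0.058 to 0.044). At P7d over E18.5d they were *Cpt1c* (0.017 with quantile normalization, -0.20 to -0.093), *Acot13* (0.0088, -0.27 to -0.16) and *Echs1* (0.034, -0.23 to -0.13, both with the median of ratios) and *Acad9* (-0.031 with an equal sum, -0.050 to 0.081). For P7d over P1d, with the 4 scalings in the order above, they were *Cpt1b* (0.12, 0.16, 0.13, 0.17), *Acsl5* (0.050, 0.087, 0.054, 0.013), *Acaa2* (0.048, 0.087, 0.051, 0.15) and *Eci1* (0.12, 0.16, 0.12, 0.058, of which 0.16 passed the threshold, adjusted p = 0.0264), and with the first 3 of them *Acot13* (0.041, 0.081, 0.044). When 1 heart was left out, *Cpt1b* ran from -0.061 to 0.030, *Eci1* from -0.041 to 0.041 (0.015 with the *Xist* covariate), *Cpt2* from -0.0075 to 0.12 (-0.010 with the covariate), *Acacb* from -0.053 to 0.091 and the log2 ratio of *Etfa* to *Etfb* from -0.011 to 0.13. *Acad9* was at 0.025 with the sum without mitochondrial, haemoglobin and structural RNA genes.

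Deviations of hearts with the same replicate number correlated at -0.0546 to 0.112, and not every heart correlated best with its own number, so the numbers were not taken to pair hearts. With the replicate block 25 genes were higher and 2 lower at P1d, 26 and 4 at P7d over E18.5d, and 10 and 7 at P7d over P1d. The calls that changed were *Acsl3* at P1d (adjusted p = 0.0419) and *Acads* at P7d over P1d (adjusted p = 0.0296). Groups of 3 hearts limit all of these tests, and depth limits *Acsl6* and *Acad10* most.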
